A study of Arabidopsis thaliana with 4 samples.

Results

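Cytosolic ribosomal protein genes encode the proteins of the large (60S) and small (40S) subunits that translate nuclear messages. The genes described here were those on chromosomes 1 to 5 whose annotated product or description named a ribosomal protein and did not name a plastid, a mitochondrion, a kinase, a methyltransferase or an acetyltransferase. The rule found 320 of 37713 genes outside a copy of organelle DNA on chromosome 2. The name of the set was only partly matched by the annotation. The location notes of the annotation were read for the cytosolic ribosome, then for a plastid or mitochondrion, and for no other location. By these notes 166 members were placed in the cytosolic ribosome or its subunits. Of the others, 52 carried a plastid or mitochondrial term and 102 carried neither. The last class includes elongation factor relatives and members named only for a protein family, so values are given both for the 320 members and for the 166 genes with a cytosolic note.

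H3K4me3, the trimethylation of lysine 4 on histone H3, marks nucleosomes just downstream of the start of transcribed genes. In plants each ribosomal protein is usually encoded by several near-equivalent gene copies, and translation capacity is one of the largest costs of a growing root meristem. Osmotic stress slows root growth, and the TOR kinase pathway links growth conditions to ribosome production. These statements are background and were not measured here.

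CUT&Tag, in which a transposase tethered to an antibody cuts and tags the DNA around a histone mark, was run on roots of the Col-0 accession. Control and osmotic stress (sorbitol medium) were compared with 2 libraries in each condition, and all 4 libraries share the genotype and tissue. Nothing in the labels says whether the libraries came from separate cultures, so the p-values measure the spread between these libraries. Control replicate 1 held 9011630 fragments and control replicate 2 held 6396842, while stress replicate 1 held 15974955 and stress replicate 2 held 25714827. Depth and condition therefore cannot be told apart from the labels alone. Of 10 root marker genes, 4 had a peak in every library and 3 had no peak in any library. Among those 4, 1 was called higher and 2 lower under stress, beside 8.54% and 11.1% of all genes tested. Of 4 leaf marker genes, none had a peak in every library and 3 had no peak in any library. The root gene CASP1 and the leaf gene LHCB1.3 were each without a control peak but had peaks under stress in replicates 1 and 2. At CASP1 the summit lay nearer the start of a neighbouring gene (AT2G36090), so that peak cannot be assigned to CASP1 alone. The part of cell composition in the results below was not tested. In whole roots, a change in the share of cells that carry the mark and a change in the mark per cell cannot be told apart.

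The upstream sequences of 3 members are shown because the results below return to them: AT5G47700 and AT1G43170 fell under stress, and AT3G11940 was not called. Each is the 250 bases before the annotated transcription start site (TSS), read 5′ to 3′ on the strand of the gene from the RefSeq TAIR10.1 assembly, and none overlaps an annotated gene. Capitals mark AAACCCTA, the telo-box, and TGGGCC or TGGGCT, the core of site II elements, on either strand. Both motifs are known from plant ribosomal protein promoters.
AT5G47700 (60S acidic ribosomal protein family, chr5:19328987-19329236, minus strand): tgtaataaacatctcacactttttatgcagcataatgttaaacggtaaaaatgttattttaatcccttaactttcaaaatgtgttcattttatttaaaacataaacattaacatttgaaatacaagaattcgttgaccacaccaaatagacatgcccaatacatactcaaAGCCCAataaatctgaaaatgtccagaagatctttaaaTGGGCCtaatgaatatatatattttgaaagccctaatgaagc
AT1G43170 (RP1, ribosomal protein 1, chr1:16266303-16266552, plus strand): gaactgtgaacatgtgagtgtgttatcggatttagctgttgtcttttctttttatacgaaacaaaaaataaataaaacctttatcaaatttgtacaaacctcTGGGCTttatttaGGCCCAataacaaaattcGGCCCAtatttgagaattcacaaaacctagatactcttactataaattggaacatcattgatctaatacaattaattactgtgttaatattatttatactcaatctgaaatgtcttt
AT3G11940 (RPS5A, ribosomal protein 5A, chr3:3779546-3779795, minus strand): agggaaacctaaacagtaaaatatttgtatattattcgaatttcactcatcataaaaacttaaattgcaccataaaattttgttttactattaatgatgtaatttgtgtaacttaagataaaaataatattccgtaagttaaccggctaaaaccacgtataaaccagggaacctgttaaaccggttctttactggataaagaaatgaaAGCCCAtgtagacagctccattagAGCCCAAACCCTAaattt

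These upstream stretches held 1 TGGGCC and 1 TGGGCT in AT5G47700, 2 TGGGCC and 1 TGGGCT in AT1G43170, and 1 AAACCCTA with 2 TGGGCT in AT3G11940, where one TGGGCT overlaps the telo-box. Over the window from 250 bases before to 50 bases after the TSS, AAACCCTA was present in 37.8% of the 320 members and 48.8% of the 166 genes with a cytosolic note, against 6.24% of the 27350 protein-coding promoters. TGGGCC was present in 54.7%, 68.7% and 15.5% of the same groups, and TGGGCT in 44.1%, 51.2% and 14.2%. The telo-box lay in the first 50 bases of the gene in 20.9% of members and in the 250 bases upstream in 16.6%, while for TGGGCC the shares were 10.3% and 47.5%. A match is a description of letters in a window and not a measured binding site.

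Most ribosomal protein genes carried the mark in every library. A gene counted as marked where a peak of the library lay between 1 kb upstream of its TSS and its end. By that measure 269 of the 320 members (84.1%) had a peak in all 4 libraries, against 54.4% of protein-coding genes. Of the 166 genes with a cytosolic note 148 (89.2%) did. A further 14 members (4.38%) lacked a peak only in control replicate 2, the library with the fewest fragments. That share was near the 3.85% of protein-coding genes.

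No peak was called in any library at 29 members (9.06%), against 31.9% of protein-coding genes. Of these 29 members, 13 have a cytosolic note. The S5 family copies AT1G58684, AT1G58983 and AT1G59359 each had 100% of their window matched elsewhere in the genome at 98% identity or more, so reads may not be placed on one copy, and the absence of a peak there is uncertain. Of the 11 genes of the 60S acidic ribosomal protein family, whose products form the lateral stalk that recruits elongation factors, AT3G28500, AT5G24510 and AT5G40040 had no peak. Of the S19 family, AT1G33850, AT5G09490, AT5G43640 and AT5G63070 had none. These genes were named after their values were seen.

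At 3 members (0.938%) a peak was called in both stress replicates and not in control, against 4.68% of protein-coding genes. AT3G54210, an L17 family gene with a plastid or mitochondrial note, reached a pileup of 18.1 and 17.8 per 1000000 fragments in stress replicates 1 and 2. AT5G09770, also of the L17 family, reached 9.95 and 11.04, and AT4G37660, of the L12/ClpS family, reached 8.58 and 8.40. None of the 3 has a cytosolic note, and no member was marked in both control libraries alone. The other 5 members had a peak in stress replicate 2 alone (2 genes), in control replicate 1 alone (1), in replicate 1 of each condition (1) or in all but control replicate 1 (1). The fold enrichment of these peaks over local background was low, 1.73 and 1.72 at AT3G54210, and both stress libraries were deeper than both control libraries.

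Peak height was then compared at the 269 members with a peak in every library. The height of a gene was the highest pileup among its peaks in a library, scaled to 1000000 fragments of that library, and is called the normalised pileup below. Its median over the 269 members was 17.5 in both control replicates, 17.0 in stress replicate 1 and 15.9 in stress replicate 2. The medians over all 16927 genes tested were 13.0 and 13.1 in control and 13.96 and 13.1 under stress. Ribosomal protein genes were thus high in control, at a median percentile of 75.4 among genes with a peak in control replicate 1. The median percentile was 74.2 among genes with a peak in stress replicate 2. Each percentile was taken over the genes with a peak in that library, so the values do not show whether the rank changed.

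The distance between the members and all genes was smaller in both stress libraries. On the log2 scale the median member stood above the median gene by 0.43 and 0.42 in the control libraries and by 0.29 and 0.28 in the stress libraries. For genes with a cytosolic note these distances were 0.61 and 0.60 in control and 0.40 and 0.36 under stress. Both stress libraries lay below both control libraries, although the exact two-sided permutation test over 4 libraries cannot go below p = 0.33, the value obtained here.

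Gene by gene, more members fell than rose. At an adjusted p under 0.05 (limma, Benjamini-Hochberg over all 16927 genes), 44 of 269 members were lower under stress and 6 were higher. Over all genes tested, 11.1% were called lower and 8.54% higher, and for members these shares were 16.4% and 2.23%. The median log2 change of members was -0.13, against -0.00112 over all genes. Of the 269 members 184 had a change below 0, against 8483 of the 16927 genes tested. In all 44 called lower both stress libraries lay below both control libraries. With 2 libraries per condition a called fall leaves little room for overlap, so this adds no separate support. The stress libraries lay below the control libraries in 45.7% of the tested members, against 30.4% of all genes tested, and above them in 15.6%, against 30.3%. The count of falls rests in part on single libraries, which left 18 falls when control replicate 1 was omitted, 15 when control replicate 2 was, 75 for stress replicate 1 and 21 for stress replicate 2. The shares of members lower were then 6.67%, 5.30%, 27.9% and 7.81%, against 6.45%, 5.52%, 16.0% and 5.93% of all genes, so the members' share was close to that of all genes when either control library was omitted. The counts also depend on the measure. By fold enrichment over local background 24 members were lower and 14 higher, where 6.24% of all genes were lower and 8.24% higher. With each library divided by its median 89 were lower and 5 higher, against 19.4% and 8.29% of all genes. When genes with a peak in at least 2 libraries were included and missing values filled with the lowest signal of the library, 5 of 288 members were lower and 3 higher, against 2.23% and 6.13% of all genes.

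**Figure D1:**
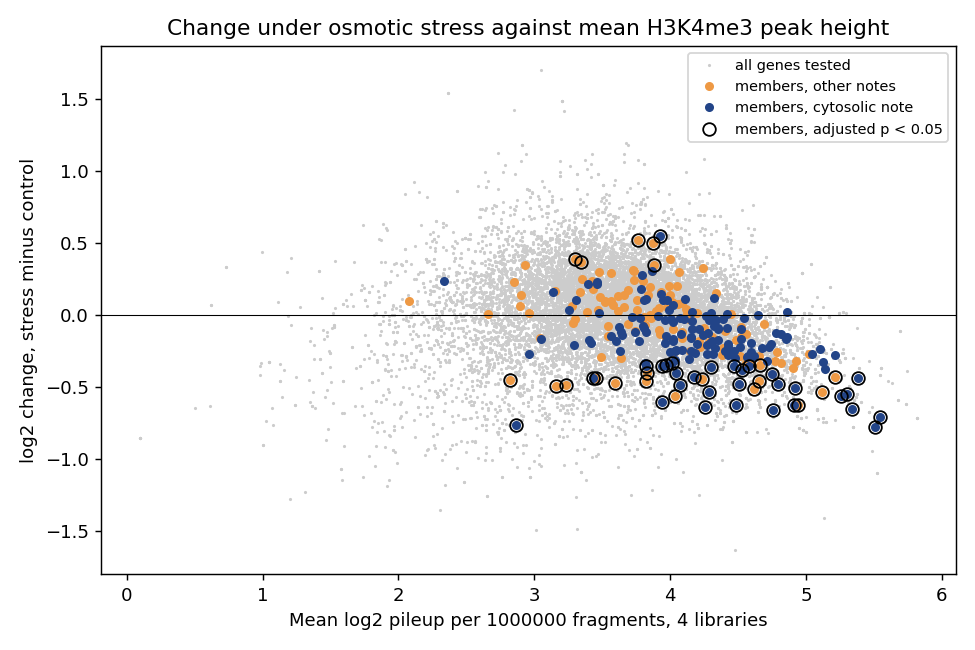
Each point is a gene, plotted by its mean log2 pileup per 1000000 fragments over 4 libraries (x axis) and its log2 change under stress (y axis). Grey points are the 16927 genes tested, blue and orange points the 269 members with and without a cytosolic note, and black circles the 50 members called by limma, 44 below 0 and 6 above.

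The change moved with the height of the peak across all genes. In the quartile of all tested genes with the highest mean signal, above 17.7 normalised pileup, 19.6% of genes were called lower, 2.62% were called higher and the median log2 change was -0.15. Members were crowded into this quartile, which held 118 of the 269. Of those 118 members 22.9% were called lower and 0 higher, with a median of -0.24. In the next quartile 11.6% of 86 members and 7.30% of all genes were lower. When the trend with mean signal was removed by cyclic loess, 34 members were lower and 6 higher, where 11.4% of all genes were lower and 9.3% higher, and the median change of members was -0.056, against 0.00835 over all genes. For the genes with a cytosolic note, 21 of 148 were then lower and 2 higher, with a median of -0.11.

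Genes of both subunits were among those called lower, beside 11.1% of all genes lower and 8.54% higher. Of 73 tested genes whose notes name the large subunit, 13 were lower and 1 was higher, with a median log2 change of -0.20. Of 61 tested genes whose notes name the small subunit, 13 were lower and 0 were higher, with a median of -0.20. All 148 tested genes with a cytosolic note gave 29 lower and 1 higher, a median of -0.18, and a change below 0 in 123 genes. By fold enrichment these counts became 17 lower and 4 higher, with a median of -0.061. With control replicate 1 omitted 3 genes of the large subunit were lower (4.11%), and with control replicate 2 omitted 3 (3.90%), below the 6.45% and 5.52% of all genes. The count for the large subunit was 26 (35.6%) and 6 (8.22%) without stress replicates 1 and 2. With control replicates 1 and 2 and stress replicates 1 and 2 omitted in turn, 6.45%, 5.52%, 16.0% and 5.93% of all genes were lower. In that order the count for the small subunit was 7 (11.5%), 3 (4.84%), 20 (32.8%) and 8 (13.1%). For all genes with a cytosolic note it was 12 (8.11%), 8 (5.23%), 49 (33.1%) and 16 (10.8%). Without control replicate 2 both shares were below that of all genes.

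Members without a cytosolic note were counted by their annotation. A plastid or mitochondrial note without a cytosolic note was carried by 45 tested members, with a median change of 0.012. Of these, 9 were lower (20.0%) and 1 was higher (2.22%). Without control replicates 1 and 2 the count of falls was 3 (6.52%) and 4 (8.51%), against 6.45% and 5.52% of all genes. It was 11 (24.4%, median -0.12) without stress replicate 1 and 1 (2.22%, median 0.14) without stress replicate 2. Of all genes 16.0% and 5.93% were then lower. By fold enrichment 3 were lower (6.67%) and 4 higher, against 6.24% and 8.24% of all genes. In the main fit 11.1% of all genes were lower and 8.54% higher. Of 76 with neither note, 6 were lower and 4 were higher, with a median of -0.018. The 27 genes that the rule left out because their names state a plastid or mitochondrial ribosomal protein gave a further comparison. Of the 23 of these tested, 2 were higher and 0 were lower, with a median of 0.11. The differences between these classes were not tested.

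**Figure D2:**
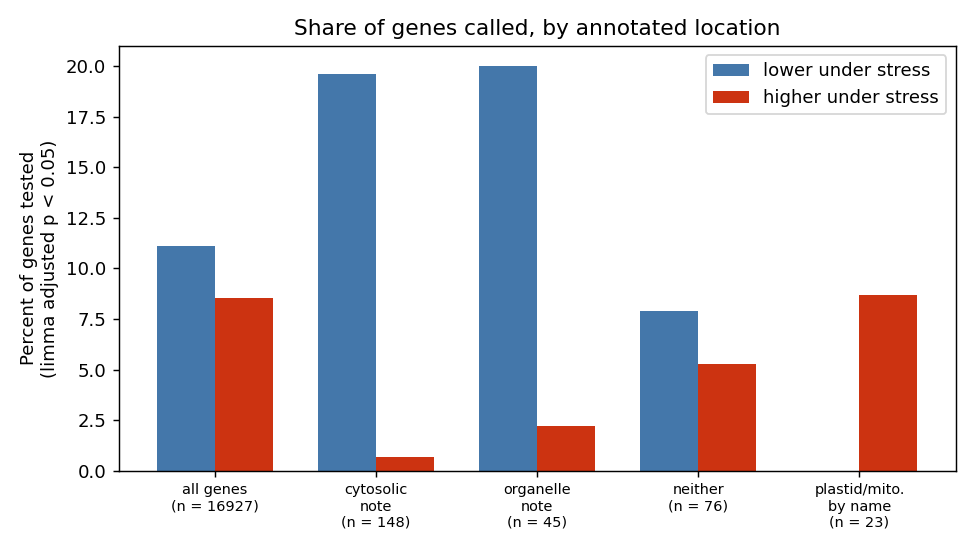
Bars give the percent of tested genes called lower (blue) or higher (red) under stress at a limma adjusted p under 0.05, for all genes, for the 3 classes of members by location note, and for the genes left out by name. Among genes with a cytosolic note 19.6% were lower and 0.676% higher. Among members with a plastid or mitochondrial note these shares were 20.0% and 2.22%.

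The 10 largest falls were chosen from called members whose conditions do not overlap. Among them were the 3 genes that stood highest in control. AT3G02080, which encodes an S19e family protein of the small subunit, gave 58.8 and 60.2 normalised pileup in control and 38.7 and 31.1 under stress. Its log2 change was -0.78 ± 0.17 (SE, n = 2 libraries per condition, limma adjusted p = 0.000778). AT5G02960, an S12/S23 family gene whose product lies at the decoding centre, gave 58.0 and 61.4 in control and 44.3 and 30.0 under stress, a change of -0.71 ± 0.18. AT4G17390, an L23/L15e family gene, gave 49.6 and 52.2 in control and 37.4 and 28.0 under stress, a change of -0.65 ± 0.16. Stress replicate 2 was the lowest library in each of the 3. With cyclic loess the changes became -0.28 at AT3G02080, -0.20 at AT5G02960 and -0.22 at AT4G17390, and the last 2 lost the call. All 3 lost the call when either control library was omitted (limma adjusted p from 0.12 to 0.22). At all 3 the summit lay nearer the TSS of a neighbouring gene (AT3G02090, AT5G02970 and AT4G17410), so the peak is shared and cannot be assigned to the ribosomal protein gene alone.

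Falls at peaks nearest the member's own TSS included genes of both subunits. RS27A (AT3G61110, ribosomal protein S27) gave 35.5 and 32.5 in control and 23.0 and 20.1 under stress, a log2 change of -0.66 ± 0.13. AT1G04480, of the L14p/L23e family, gave 35.4 and 41.1 in control and 25.9 and 23.5 under stress, a change of -0.63 ± 0.14. AT4G14320, of the zinc-binding ribosomal protein family, gave 19.9 and 18.1 in control and 14.02 and 11.1 under stress, a change of -0.61 ± 0.13. The conditions did not overlap in these 3, as the choice of the 10 largest falls required. AT2G40010, an L10 family gene annotated to the cytosolic ribosome, was the exception in height, with 10.5 and 8.60 in control and 5.63 and 5.56 under stress, a change of -0.77 ± 0.15, and it lay in the lowest quartile of mean signal.

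The remaining large falls were at RPS15AD (AT3G46040, ribosomal protein S15A D), with 37.1 and 37.7 in control and 27.4 and 21.4 under stress, and at AT5G56670 of the S30 family, with 28.5 and 27.0 in control and 19.2 and 17.0 under stress. Their log2 changes were -0.63 ± 0.14 and -0.62 ± 0.13, and both peaks were nearest the TSS of a neighbour, HTB11 (a histone gene) and SYNC1 (an asparaginyl-tRNA synthetase gene). Over all members, 34 of the 44 falls and 5 of the 6 rises were at peaks nearest the member's own TSS. Among the 217 tested members with such peaks the median change was -0.13.

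**Figure D3:**
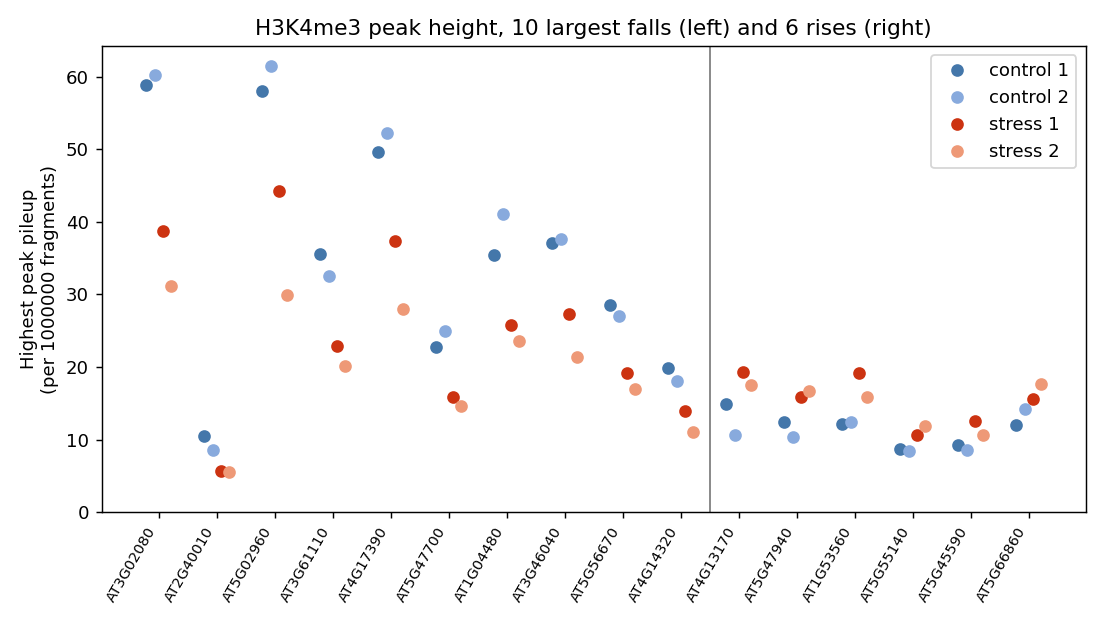
Points give the highest peak pileup per 1000000 fragments (y axis) of the 10 largest falls and the 6 rises in each of the 4 libraries, in blue for control and red for stress. Genes were chosen only where both stress libraries lie on one side of both control libraries. The control libraries reach 61.4 in the genes that fell and lie between 8.44 and 14.9 in those that rose.

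One gene for a stalk protein was called. AT5G47700, whose upstream sequence is given above, gave 22.7 and 25.01 in control and 15.9 and 14.7 under stress, a log2 change of -0.64 ± 0.12 (limma adjusted p = 0.000138). By fold enrichment its change was -0.17 and the call was lost (adjusted p = 0.27). The other 7 tested genes of the 60S acidic family were not called. AT4G25890 gave 9.32 and 11.1 in control and 12.5 and 11.3 under stress, a change of 0.23 that was not called (adjusted p = 0.24). AT5G57290 gave 13.98 and 13.8 in control and 13.4 and 13.9 under stress, and its conditions overlapped. The neighbours AT2G27710 and AT2G27720 shared the same highest peak in 3 of the 4 libraries. Differences between copies were not tested.

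The 6 members that rose were mostly not annotated to the cytosolic ribosome. AT5G47940, annotated as a 40S ribosomal protein S27, gave 12.4 and 10.3 in control and 15.8 and 16.7 under stress, a log2 change of 0.52 ± 0.13. AT1G53560, of the L18ae family, gave 12.2 and 12.5 in control and 19.2 and 15.9 under stress, a change of 0.50 ± 0.13. AT4G13170, of the L13 family, was the one riser with a cytosolic note, with 14.9 and 10.6 in control and 19.3 and 17.5 under stress, a change of 0.55 ± 0.13. Its peak was nearest the TSS of the neighbour AT4G13180, and the call was lost by fold enrichment and without control replicate 2 (limma adjusted p = 0.23). Without control replicate 2 AT5G47940 was not called either, nor was AT1G53560 without stress replicate 1 (limma adjusted p = 0.091 and 0.083). With filled values none of the 6 was called (limma adjusted p from 0.066 to 0.17).

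The other 3 rises were smaller. AT5G55140 (L30 family) went from 8.77 and 8.44 to 10.7 and 11.8, and AT5G45590 (L35) from 9.32 and 8.60 to 12.5 and 10.7. AT5G55140 (limma adjusted p = 0.040) lost its call by fold enrichment, with cyclic loess, with filled values and with any library omitted. AT5G45590 (limma adjusted p = 0.04998) lost it in these settings and also with the replicate block, with median scaling and at the lowest depth. AT5G66860, an L25 domain gene with a mitochondrial note, gave 12.0 and 14.2 in control and 15.6 and 17.7 under stress. Its log2 change was 0.35 ± 0.13 by pileup and -0.013 by fold enrichment, so the direction of that rise depends on the measure.

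The 3 members with the lowest control signal were not called, while 4 of the 20 members in the lowest quartile of mean signal were called lower and 0 higher. AT1G24240, of the L19 family, gave 3.44 and 4.85 in control and 4.32 and 4.43 under stress. AT5G59240, of the S8e family, gave 4.33 and 5.002 in control and 5.45 and 5.52 under stress, and was not called (log2 change 0.24 ± 0.18). AT1G67120, a midasin-like protein that is a homolog of a yeast factor for assembly of the large subunit and not a ribosomal protein, gave 6.55 and 6.10 in control and 6.95 and 5.79 under stress.

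Several ribosomal protein genes are known from mutants with altered leaves, embryos or fruits. A list by name of such genes and of further copies of the same proteins held 19 members. All 19 had a peak in every library, 5 were called lower and 0 higher, beside 11.1% and 8.54% of all genes. None of the 5 calls held when control replicate 1, control replicate 2 or stress replicate 2 was omitted (limma adjusted p from 0.053 to 0.41), and by fold enrichment RPS18C, AT3G53890 and RP1 lost theirs. STV1 (AT3G53020), an L24e protein known for reinitiation of translation after upstream reading frames and for gynoecium patterning, gave 32.7 and 32.8 in control and 26.4 and 21.0 under stress, a log2 change of -0.48 ± 0.14. RP1 (AT1G43170), shown above, gave 24.6 and 25.5 in control and 21.7 and 17.7 under stress, a change of -0.36 ± 0.13. AT3G53890 (S21e) gave 24.1 and 28.8 in control and 22.0 and 18.6 under stress. In these 3 called genes the conditions did not overlap, which adds no support beyond the call.

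Several proteins of this list are encoded by more than one listed copy. Among the S18 genes, RPS18C (AT4G09800) gave 21.0 and 21.1 in control and 16.3 and 15.0 under stress, a change of -0.43 ± 0.12. PFL (AT1G22780), known from its pointed first leaves, gave 20.0 and 19.7 in control and 19.6 and 16.6 under stress, a change of -0.14 ± 0.12 that was not called. The third copy, AT1G34030, gave 18.1 and 17.98 in control and 18.4 and 14.1 under stress, and its conditions overlapped. The fitted changes of the S18 copies were not compared by a test.

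Between the L23A genes, RPL23AA (AT2G39460) gave 22.6 and 22.0 in control and 18.4 and 16.4 under stress, a called change of -0.36 ± 0.12. RPL23AB (AT3G55280) gave 17.98 and 17.8 in control and 17.0 and 13.4 under stress, a change of -0.25 ± 0.13 that was not called. The difference between these copies was not tested.

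The S6 genes encode the classic target of the TOR and S6 kinase pathway. RPS6 (AT4G31700) gave 19.3 and 16.3 in control and 18.1 and 17.9 under stress, and the conditions overlapped. EMB3010 (AT5G10360), the other S6 copy, gave 21.7 and 21.9 in control and 19.2 and 17.9 under stress, a change of -0.23 ± 0.12 that was not called. RPS5A (AT3G11940), widely used for its activity in dividing cells, gave 20.2 and 21.6 in control and 18.03 and 19.6 under stress, and RPS5B (AT2G37270) gave 16.8 and 16.4 in control and 16.2 and 13.5 under stress. Neither S5 gene was called.

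Of the listed L10, L4 and L5 genes none was called. SAC52 (AT1G14320), an L10 gene known from a suppressor of a dwarf mutant, gave 24.97 and 26.7 in control and 23.2 and 21.9 under stress. RPL10B (AT1G26910) gave 17.2 and 18.4 in control and 17.6 and 17.3 under stress. AT3G09630 of the L4 family came nearest to the threshold, with 26.5 and 26.3 in control and 20.9 and 21.0 under stress (log2 change -0.33 ± 0.13, limma adjusted p = 0.052). Its copy AT5G02870 gave 20.1 and 22.2 in control and 21.7 and 19.8 under stress. ATL5 (AT3G25520) gave 23.0 and 24.4 against 23.5 and 21.3, and RPL5B (AT5G39740) gave 25.5 and 23.9 against 20.9 and 19.3. RPS13A (AT4G00100) gave 21.2 and 20.8 in control and 18.5 and 18.1 under stress, a change of -0.20 ± 0.12.

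**Figure D4:**
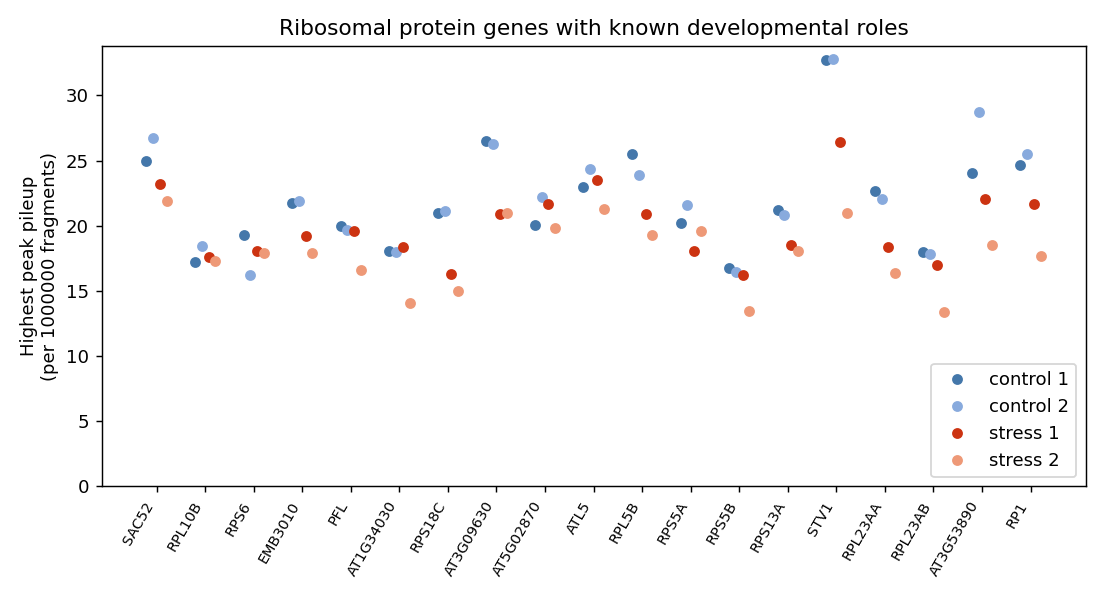
Points give the highest peak pileup per 1000000 fragments (y axis) of the 19 listed members in each of the 4 libraries, in blue for control and red for stress. STV1, RPS18C, RPL23AA, AT3G53890 and RP1 are the 5 that were called lower.

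Other genes of the translation machinery were compared from a list of 23 translation and ribosome biogenesis genes. Of these 4 were lower and 0 were higher, among 23 with a peak in every library, beside 11.1% and 8.54% of all genes. LOS1 (AT1G56070), an elongation factor 2-like gene that is also a member by its product name, fell by 0.43 on the log2 scale (SE 0.15). The elongation factor 1A gene AT5G60390 fell by 0.50, the initiation factor gene EIF4A1 (AT3G13920) fell by 0.38 and AT3G51800, a metallopeptidase M24 family gene, fell by 0.35. Of 6 genes that regulate growth upstream of the ribosome, RAPTOR1 (AT3G08850), a subunit of the TOR complex, rose by 0.42 and none fell past the threshold.

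The peaks of ribosomal protein genes were also compared in extent and position. The median length covered by peaks in the window of a member was 992 and 898 bp in control and 1153 and 1159 bp under stress, and over all genes tested it was 871 and 778 bp in control and 1033 and 1085 bp under stress. The median summit of members lay 94 and 100.0 bp downstream of the TSS in control and 199 and 209 bp under stress. Over all genes these distances were 129 and 133 bp in control and 199 and 219 bp under stress. The summit lay farther downstream in both stress libraries than in both control libraries at 96 of 269 members (35.7%), against 29.2% of all genes, and farther upstream at 22 (8.18%), against 13.5%. For both measures the exact two-sided permutation test over libraries gave p = 0.33, the smallest that 4 libraries allow. Both stress libraries were deeper than both control libraries, so depth and condition cannot be told apart for these measures.

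Members with promoter motifs stood beside those without, where 11.1% of all genes tested were lower and 8.54% higher. Of 104 tested members with AAACCCTA, 21 were lower (20.2%) and 1 was higher (0.962%), with a median log2 change of -0.19. Of 165 without it, 23 were lower (13.9%) and 5 were higher (3.03%), with a median of -0.074. Of 183 tested members with TGGGCC or TGGGCT, 30 were lower (16.4%) and 2 were higher (1.09%), with a median of -0.15. Of 86 without them, 14 were lower (16.3%) and 4 were higher (4.65%), with a median of -0.046. The motif was more frequent in genes with a cytosolic note, so the motif and the class of the gene move together, and the difference between these groups was not tested.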

How the data were processed

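H3K4me3 CUT&Tag peak tables of 2 control and 2 osmotic stress libraries of Col-0 root were used. Each deposited peak carries a pileup (a signal counting fragments, unscaled for depth), a fold enrichment (the ratio of that pileup to the background nearby) and −log10 p- and q-values. Per the file headers, MACS 2.2.7.1 made the calls library by library at p 1e-05, kept all duplicates and used no control library, with lambda taken over 10000 bp and a genome size set to 2700000000. The submitters' processing notes name fastp 0.19.7, Bowtie2 2.3.5.1 and TAIR10. Genes and sequences came from RefSeq TAIR10.1, with the gene note read as its description.

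The highest pileup per 1000000 fragments in each gene window (1000 bp before the TSS to the gene end) was compared on the log2 scale, with no pseudocount, in limma 3.58.1 (R 4.3.3; lmFit, eBayes with a trend) over the genes with a peak in all libraries, with Benjamini-Hochberg adjustment at 0.05. A peak is known only where it was called, so weak signal below the call is not seen. Repeated sequence was found with blastn 2.17.0+ (98% identity, 100 bp). The fit was also run on simulated data, with independent normal values around the mean of each gene. The simulation held no difference in depth between conditions, so it does not bear on the depth difference of these libraries. Other steps used Python 3.11.15 and pandas 2.3.3.

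The members and lists were chosen with earlier results of these data known. Genes were named by a rule: the 10 largest called falls and rises whose conditions do not overlap, the 3 highest and 3 lowest members by control signal, members marked in one condition only, the developmental list, and at most 5 called genes of each other list. Alternatives covered fold enrichment, scaling, peak threshold, window, merged regions, filled values, a replicate block and each library left out. Cyclic loess, equal depth for the fits and the restriction to own TSS were chosen after seeing the data.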

Additional observations from a re-analysis of the deposited data

How the results depend on the processing

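The count of members called lower (44 of 269) was within 1.5 times of the main value for a −log10 q of at least 10 (45), a window of 1 kb either side of the TSS (46), merged regions (55), peaks kept at the lowest depth (43), cyclic loess (34) and own-TSS members (34). It moved to 24 by fold enrichment, to 89 when each library was divided by its median and to 5 when missing values were filled for genes with a peak in at least 2 libraries. The count called higher (6) moved to 14 by fold enrichment and to 3 with filled values. Leaving out 1 library gave 15 to 75 lower and 4 to 6 higher. The median log2 change (-0.13) moved to -0.032 by fold enrichment and -0.056 with cyclic loess, and ranged from -0.18 to -0.054 with 1 library left out. The cause of these moves was not tested. With filled values, genes with an assigned lowest signal also enter the fit.

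Over 16927 genes, the deviations of control replicate 1 and stress replicate 1 from their condition means had a correlation of -0.00399. With 2 libraries per condition this value cannot show whether same-numbered libraries shared a culture or batch. The main fit did not pair them. With a replicate block 39 members were lower and 6 higher, and all 39 were among the 44.

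Members with a peak in every library numbered 258 to 268 under the other peak settings, and 269 to 283 with 1 library left out. The difference in covered length was 208 bp and 210 bp at the stricter q and at the lowest depth, moved to 137 bp in the window around the TSS, and ranged from 174.5 to 258.5 bp with 1 library left out.

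Of the 21 named members that were called, 1 changed direction, AT5G66860, with -0.013 by fold enrichment. Of these 21, 7 lost the call without changing direction by fold enrichment, 8 with cyclic loess, 17 with filled values, 1 with median scaling, 1 at the lowest depth, 1 with the replicate block, and 3 to 14 with 1 library left out. Among named members that were not called, the direction also turned for AT1G26910 (0.19 by fold enrichment, 0.00603 with cyclic loess), AT1G22780 (0.016) and AT3G25520 (0.096) by fold enrichment, AT3G25520 (0.069) and AT5G02870 (0.082) with cyclic loess, and AT4G31700 (-0.025) and AT1G67120 (-0.042) with median scaling, with -0.00114 for AT1G67120 under cyclic loess. With 1 library left out the log2 change ranged from -0.15 to 0.35 at AT1G24240, from -0.12 to 0.14 at AT1G67120, from -0.080 to 0.021 at AT1G26910, from -0.10 to 0.15 at AT4G31700, from -0.36 to 0.029 at AT1G34030 and from -0.099 to 0.045 at AT5G02870.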
